A study of Mus musculus with 17 samples.

Results

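Osteoclast precursors read 3 kinds of surface signal, and the 10 genes described here encode the receptors, adaptors and kinases that receive them. They are Tnfrsf11a and Traf6 for the RANK signal, Csf1r for the M-CSF signal, Tyrobp, Fcer1g, Trem2, Oscar and Siglec15 for the costimulatory signal, and Syk and Plcg2 downstream of it. They were chosen by name for these roles from the 41388 genes in the tables, and all 10 were found there. RNA-seq libraries of 17 mouse cultures were measured. Bone marrow macrophages (BMMs) were grown with M-CSF, and preosteoclasts (preOCs) received M-CSF and 100 ng/ml RANKL for 24 h. Both genotypes carried loxP sites on both copies of Bap1, the gene of a nuclear deubiquitinase: the Bap1flox littermates had no Cre, and the Bap1LysM mice also carried LysM-Cre, in which Cre sits in Lyz2, the lysozyme gene of myeloid cells. The preOC libraries came from 6 Bap1flox and 5 Bap1LysM mice, which were male and 20 weeks old, and the BMM libraries numbered 3 for each genotype. The BMM libraries are known from their labels alone. Nothing in the sources says whether BMM and preOC libraries of the same number came from the same mouse, so their p-values measure the spread between libraries only.

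RANK, the receptor for RANKL, has no enzyme activity and signals by recruiting TRAF adaptors, of which TRAF6 is the one osteoclast formation needs most. The M-CSF receptor is a tyrosine kinase that keeps macrophages and osteoclast precursors alive and dividing. The third signal comes from receptors with short tails that pair with the membrane adaptors DAP12, the product of Tyrobp, or FcR gamma, the product of Fcer1g. These adaptors carry an immunoreceptor tyrosine-based activation motif (ITAM), which on phosphorylation binds the kinase SYK. SYK in turn activates phospholipase C gamma 2, and the calcium released drives the transcription factor NFATc1. TREM2 and SIGLEC15 pair with DAP12, and OSCAR, a receptor for collagen, pairs with FcR gamma.

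Each library held 37967542 to 61369441 counts, so counting error was small for every one of the 10 genes except Oscar and Siglec15 in BMMs. Levels are given as CPM, the counts scaled to the library's total times its TMM factor over all 17 libraries. All 10 osteoclast markers, Oscar among them, were above 1 CPM in every preOC library. Their summed level was 6090 to 15900 CPM there against 240 to 385 CPM in BMMs. All 8 macrophage markers were above 1 CPM in every library. The share of mitochondrially encoded transcripts was 0.481% to 1.074% for replicates 1 to 3 against 2.364% to 5.264% for replicates 4 to 6, and the files of these library sets are named in different forms. The targeted gene, Bap1, was at 82.6 ± 5.51 CPM in Bap1flox preOCs (SD, n = 6) and 71.2 ± 8.77 CPM in Bap1LysM preOCs (SD, n = 5), which edgeR's quasi-likelihood test did not separate (adjusted p = 0.181). Counts over the whole gene do not show whether the floxed exons were lost. Lyz2, which the inserted Cre interrupts, lay at 0.142% to 0.479% of the Bap1flox mean in 6 of the 8 libraries labelled Bap1LysM. In the libraries labelled Bap1LysM replicate 1 it lay at 45.4% of that mean in BMMs and 80.1% in preOCs. The study's methods give LysM-Cre as heterozygous, which leaves a copy of Lyz2 without Cre. Why Lyz2 lay so far lower in the other 6 libraries was not tested. The libraries of replicate 1 stand apart from their group by this gene, and the main results that rest on them are also given without them.

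Promoter sequences of RefSeq on GRCm38.p6 were matched by symbol for 7 of the 10 genes. Those of Oscar, which rose furthest with RANKL in Bap1flox cells, Tnfrsf11a, the RANK gene, and Trem2, which fell furthest, are printed as the 250 bases before the RefSeq start, 5′ to 3′ on the strand of the gene. Capitals mark matches on either strand to GGAAA, the core of NFAT sites, GAGGAA, a core bound by PU.1, and CATGTG, an E-box bound by MITF. They also mark TGANTCA with N as any base, a pattern that takes in the AP-1 site but is looser. Matches may overlap.
Oscar, chr7:3616158-3616407, minus strand: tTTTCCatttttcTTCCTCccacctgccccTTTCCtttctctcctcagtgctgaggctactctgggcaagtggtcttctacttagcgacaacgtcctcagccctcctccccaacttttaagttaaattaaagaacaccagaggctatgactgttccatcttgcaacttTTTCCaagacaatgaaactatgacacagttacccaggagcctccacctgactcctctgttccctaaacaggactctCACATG
Tnfrsf11a, chr1:105780473-105780722, plus strand: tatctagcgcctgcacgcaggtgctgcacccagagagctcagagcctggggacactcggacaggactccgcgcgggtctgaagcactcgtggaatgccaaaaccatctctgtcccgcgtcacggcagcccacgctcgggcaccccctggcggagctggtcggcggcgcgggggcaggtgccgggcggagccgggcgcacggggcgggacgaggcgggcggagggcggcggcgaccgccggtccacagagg
Trem2, chr17:48346151-48346400, plus strand: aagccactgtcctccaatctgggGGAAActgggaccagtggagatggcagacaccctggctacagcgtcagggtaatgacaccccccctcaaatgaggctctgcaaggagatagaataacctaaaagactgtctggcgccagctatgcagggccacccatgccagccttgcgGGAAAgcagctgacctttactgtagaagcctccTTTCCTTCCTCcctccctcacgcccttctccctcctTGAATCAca
Oscar held 3 matches to GGAAA, 1 to GAGGAA and 1 to CATGTG. Trem2 held 3 matches to GGAAA, 1 to TGANTCA (as TGAATCA) and 1 to GAGGAA. Tnfrsf11a held none of these letters in this window, whose GC content was 73.6% against 47.2% for Oscar and 56.0% for Trem2. Among the 32851 promoters of the same length in the table, 55.6% held GGAAA, 6.75% TGANTCA, 23.3% GAGGAA and 12.3% CATGTG, so each match is a description of these letters and not a binding site.

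The genes lie on GRCm38 at chr1:105780718-105847981 (Tnfrsf11a, plus strand), chr2:101678429-101701669 (Traf6, plus), chr18:61105572-61132149 (Csf1r, plus) and chr7:30413788-30417577 (Tyrobp, plus). Fcer1g lies at chr1:171229572-171234365 (minus), Trem2 at chr17:48346401-48354147 (plus), Oscar at chr7:3609813-3616157 (minus) and Siglec15 at chr18:78043614-78057395 (minus). Syk lies at chr13:52583173-52648792 (plus) and Plcg2 at chr8:117498291-117635140 (plus). All are protein coding, and the counts cover the exons of each gene. In the table's annotation, 871 exonic bases of Csf1r are shared with Hmgxb3 on the opposite strand, and whether the counting used strand is not given in the sources used here. None of the other 9 genes shared exonic bases with another gene.

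The order of the 10 genes was read on a per-length scale, as RPKM (CPM per kilobase of exon). The length is that of all annotated exon bases, such as 4946 for Trem2 and 564 for Tyrobp. The transcripts made in these cells may be shorter. The order of genes and the ratios between genes depend on these lengths, while changes of a gene between groups do not. In Bap1flox BMMs the DAP12 gene Tyrobp led at 1140 ± 94.2 RPKM (SD, n = 3), followed by Fcer1g at 1040 ± 21.8 and Csf1r at 778 ± 134 RPKM, and no range overlapped the next. Trem2 came next at 185 ± 8.83 RPKM. Plcg2 at 56.8 ± 10.4 and Syk at 43.3 ± 7.12 RPKM overlapped each other. Tnfrsf11a stood at 14.4 ± 0.716 RPKM, Traf6 at 5.84 ± 0.391 RPKM, and Siglec15 and Oscar were below 0.2 RPKM in every library.

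In Bap1flox preOCs the same 3 genes led, with Tyrobp at 709 ± 36.7, Fcer1g at 451 ± 56.0 and Csf1r at 273 ± 24.5 RPKM (SD, n = 6). The genes behind them lay close together. Plcg2, Trem2, Syk and Tnfrsf11a had means of 50.7, 47.9, 47.1 and 36.6 RPKM, and each overlapped the next. Oscar reached 21.1 ± 7.17 RPKM and Siglec15 9.79 ± 3.20 RPKM, while Traf6 stood at 7.92 ± 0.997 RPKM and overlapped Siglec15. In Bap1LysM preOCs Syk, at 64.8 ± 5.78 RPKM (SD, n = 5), took the fourth place but overlapped Plcg2. Adaptor RNA thus exceeded the RNA of the costimulatory receptors in preOCs on this scale. Oscar stood at 4.78 ± 1.83 per 100 of its adaptor gene Fcer1g in Bap1flox preOCs and 6.69 ± 2.62 in Bap1LysM preOCs. Trem2 fell from 16.3 ± 2.03 per 100 Tyrobp in Bap1flox BMMs to 6.75 ± 1.34 in Bap1flox preOCs, and Siglec15 reached 1.4 ± 0.501 per 100 Tyrobp there.

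**Figure D1:**
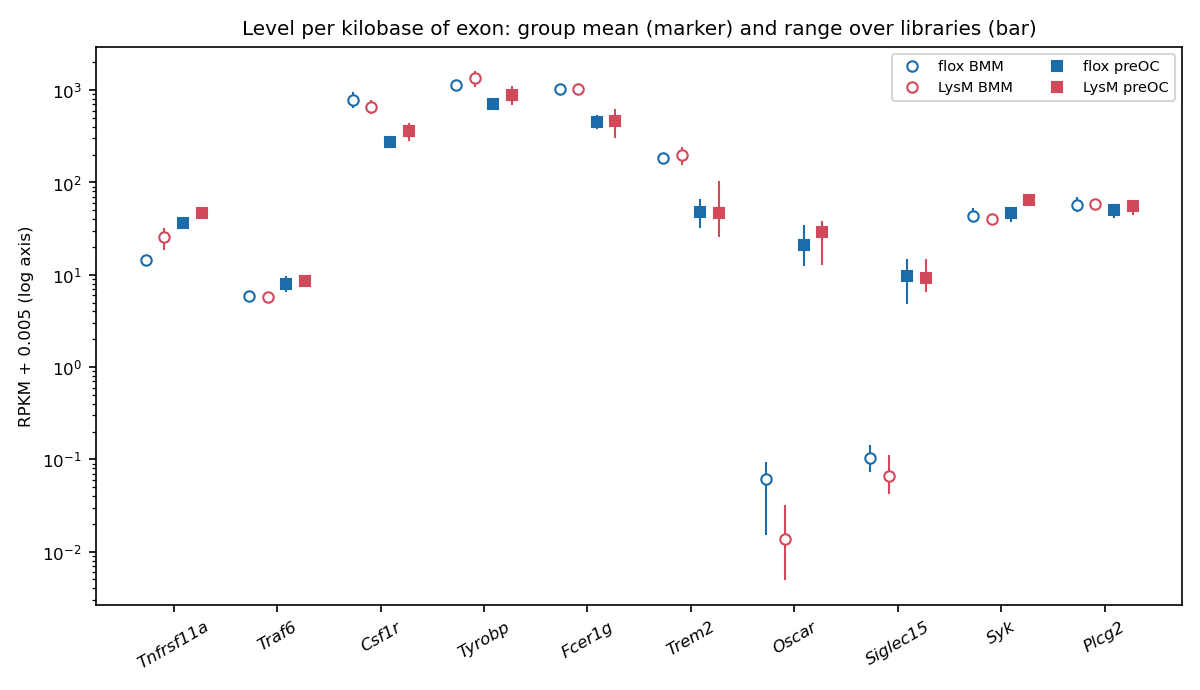
Mean RPKM of each gene (log axis, 0.005 added) in the 4 groups, with bars for the range over libraries: open circles, BMMs; filled squares, preOCs; blue, Bap1flox; red, Bap1LysM. Tyrobp, Fcer1g and Csf1r lead in every group, while Oscar and Siglec15 lie below 0.2 RPKM in BMMs and reach 21.1 and 9.79 RPKM in Bap1flox preOCs.

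RANKL moved most of the group in Bap1flox cells. In the libraries of replicates 1 to 3, the ones with both BMMs and preOCs, Oscar and Siglec15 were below 1 CPM in every BMM library and entered the test through the preOCs alone, so their rise is given as a description and left out of the counts. Of the other 8 genes 6 changed: Tnfrsf11a and Traf6 rose and Csf1r, Tyrobp, Fcer1g and Trem2 fell (edgeR, adjusted p under 0.05 over 13412 genes). RANKL changed 64.6% of all genes tested, 31.7% upwards and 32.9% downwards, so a share of this size is near what the transcriptome as a whole showed. The summed level of 7 macrophage markers (Lyz2 left out) moved with RANKL, from 7790 to 8360 CPM in Bap1flox BMMs to 2590 to 3680 CPM in all 6 Bap1flox preOC libraries, and so did that of 8 B and plasma cell markers, from 98.5 to 125 CPM to 9.34 to 21.6 CPM. That of 8 NK and T cell markers was higher in preOCs, at 1.16 to 2.19 against 0.178 to 0.581 CPM. Of the B and plasma cell markers, 3 were above 1 CPM in every Bap1flox BMM library and 3 in every Bap1flox preOC library. For the NK and T cell markers these numbers were 0 and 1, so both sums rest on few genes. The part of these markers in the changes given below was not tested. In such bulk cultures, fewer cells of a type and less RNA per cell cannot be told apart.

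Of the RANK genes, Tnfrsf11a was at 89.6, 88.0 and 81.5 CPM in Bap1flox BMMs and at 205, 218 and 236 CPM in the preOCs of replicates 1 to 3. The groups did not overlap, as for 35.1% of all genes in this direction and 36.1% in the other, and its log2 fold change was 1.35 ± 0.07 (SE; adjusted p = 1.23e-05), a 2.54-fold rise. Traf6 rose less, from 46.0 ± 3.08 to 56.3 ± 3.36 CPM (SD, n = 3 each), a log2 fold change of 0.29 ± 0.08 (adjusted p = 0.0123).

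The M-CSF receptor moved the other way. Csf1r was at 4509, 3214 and 3680 CPM in Bap1flox BMMs and at 1228, 1176 and 1300 CPM in the preOCs, so that every preOC library lay below every BMM library. Its log2 fold change was -1.62 ± 0.12 (adjusted p = 4.72e-05), which left 0.325 of the BMM level.

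The costimulatory receptors split. Oscar, near absent in BMMs, had 1 to 8 counts in each of the 3 Bap1flox BMM libraries (0.0193 to 0.160 CPM) and 23.6, 35.3 and 34.3 CPM in the preOCs. Pooled over libraries this was 5058 counts against 15, a ratio of 306 with a 95% interval of 186 to 548 from counting error alone. Siglec15 had 4 to 8 counts in each BMM library and 10.3, 16.5 and 13.6 CPM in the preOCs, a pooled ratio of 118 (73.3 to 202). Trem2 went down, from 865, 946 and 934 CPM in BMMs to 321, 247 and 241 CPM in preOCs, with a log2 fold change of -1.76 ± 0.12 (adjusted p = 3.33e-05).

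Both adaptor genes fell together with Trem2. Fcer1g dropped from 834 ± 17.5 to 344 ± 51.4 CPM (SD, n = 3 each; log2 fold change -1.28 ± 0.11, adjusted p = 7.51e-05). Tyrobp dropped less, from 643 ± 53.1 to 398 ± 15.9 CPM (-0.70 ± 0.07, adjusted p = 0.000189). Oscar thus rose while the adaptor it pairs with fell to 0.412 of its BMM level.

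The kinase and the phospholipase behind the adaptors did not pass the test. Syk was at 482, 358 and 377 CPM in Bap1flox BMMs and 358, 407 and 428 CPM in preOCs, and the groups overlapped. Its log2 fold change of -0.03 had a 95% interval of -0.32 to 0.26. That of Plcg2 was -0.30 with an interval of -0.61 to 0.02 (adjusted p = 0.0908). With the replicate number as a block Plcg2 was called (-0.29, adjusted p = 0.0202).

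**Figure D2:**
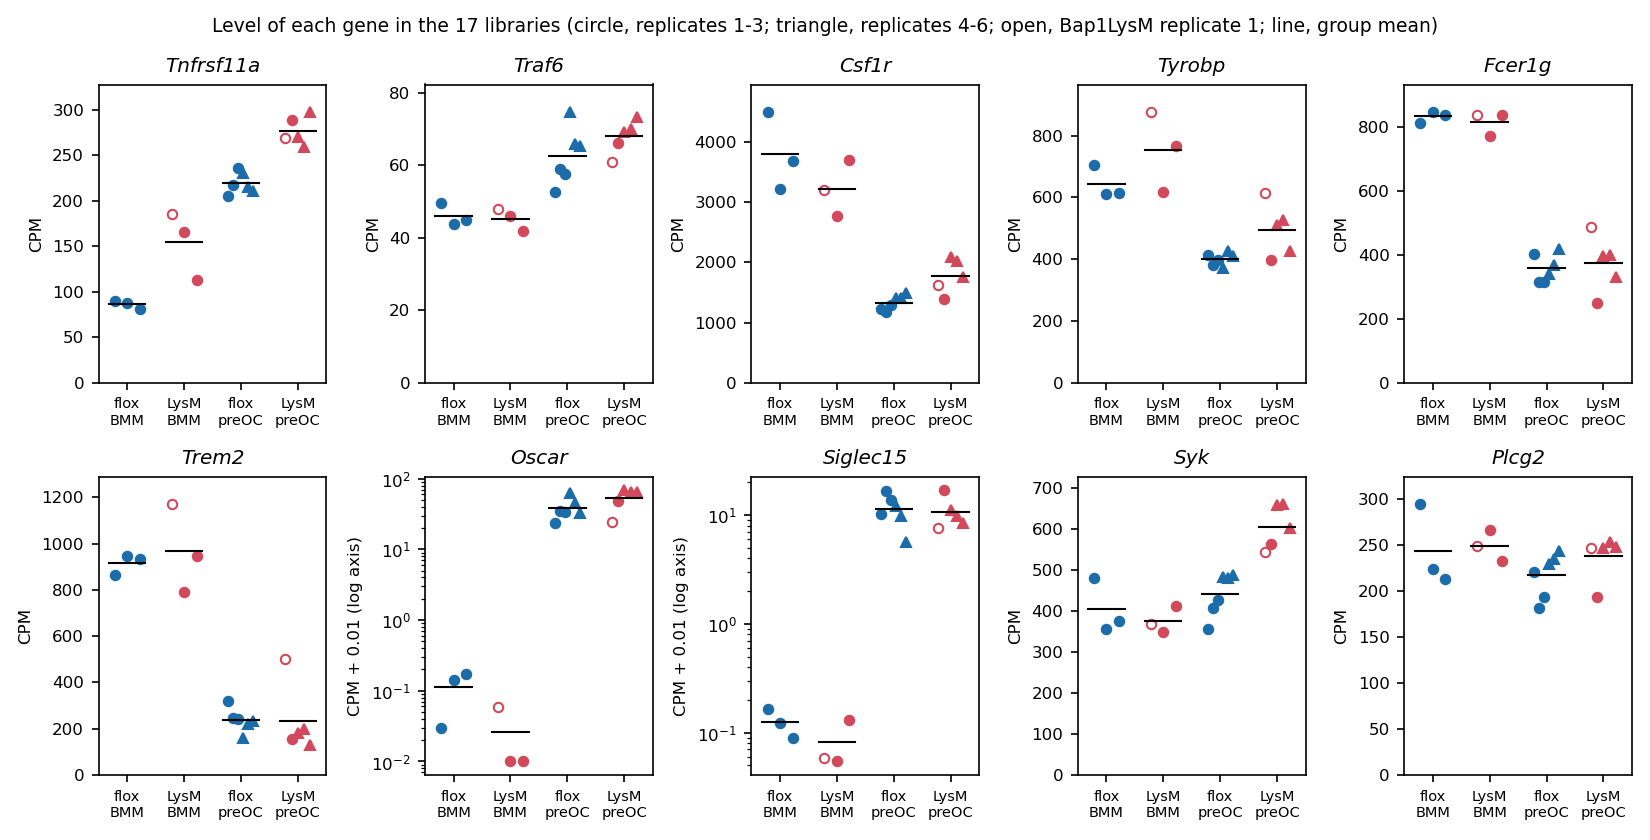
CPM of the 10 genes in each of the 17 libraries by group; Oscar and Siglec15 are on a log axis with 0.01 CPM added. Circles are replicates 1 to 3, triangles replicates 4 to 6, open circles Bap1LysM replicate 1 and lines group means. All preOC libraries lie above the BMM libraries for Oscar and Siglec15 and below them for Csf1r and Fcer1g, and Trem2 in Bap1LysM preOC replicate 1 stands at 501 CPM above the other 4 of its group.

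In Bap1LysM cells, 2 preOC libraries and 3 BMM libraries allowed the same comparison. The 7 macrophage markers summed to 6800 to 8230 CPM in Bap1LysM BMMs and 2330 to 4320 CPM in all 5 Bap1LysM preOC libraries, and the B and plasma cell markers to 65.3 to 131 and 33.3 to 81.9 CPM. Mast cell and basophil markers went from 1.68 to 3.75 up to 3.81 to 7.11 CPM, without overlap. NK and T cell markers went from 0.245 to 0.562 up to 0.992 to 4.26 CPM, also without overlap. Markers above 1 CPM in every BMM and every preOC library numbered 4 and 3 of 8 for B and plasma cells. These numbers were 0 and 1 of 8 for mast cells and basophils, and 0 and 0 of 8 for NK and T cells. The part of such cells was not tested. Oscar and Siglec15 were again left out of the counts, and of the other 8 genes 5 changed, against 19.6% of the 12998 genes tested (11.4% higher and 8.2% lower). Tnfrsf11a, Traf6 and Syk rose, and Csf1r and Fcer1g fell. The count changed with the libraries used. Leaving out preOC replicate 2 or any BMM library left 0 of 8, leaving out preOC replicate 1 left 5, and voomWithQualityWeights called 2. Without Bap1LysM replicate 1 in both conditions, 7 of 8 were called, Tyrobp and Trem2 among them, though a single preOC library then stands against 2 BMM libraries. With the replicate number as a block, which rests on 2 pairs, 4 of 8 were called. Trem2 was added (-1.77 ± 0.30, adjusted p = 0.0168), while Traf6 (0.46, adjusted p = 0.082) and Syk (0.65, adjusted p = 0.055) lost the call.

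Tnfrsf11a was at 185, 166 and 113 CPM in Bap1LysM BMMs and at 269 and 289 CPM in preOCs (log2 fold change 0.87 ± 0.23, adjusted p = 0.0478). That call was lost with each of the 5 libraries left out (adjusted p = 0.0589 to 0.167), with RLE factors (0.0505) and with voomWithQualityWeights (0.0898). Csf1r fell from 3202, 2772 and 3699 CPM to 1630 and 1401 CPM (-1.07 ± 0.23, adjusted p = 0.0298), called in 1 of the 5 fits with a library left out (0.0341 to 0.119). Syk was at 369, 349 and 414 CPM in BMMs and 544 and 563 CPM in preOCs, without overlap, as for 28.9% of all genes in this direction (0.58 ± 0.15, adjusted p = 0.0455). Its adjusted p ran from 0.000525 to 0.167 over the alternatives. Without replicate 1 in both conditions the log2 fold changes were 1.09 for Tnfrsf11a, -1.17 for Csf1r and 0.60 for Syk (edgeR, adjusted p = 0.0137, 0.0149 and 0.0469).

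Oscar had 2 counts in Bap1LysM BMM replicate 1 and 0 in replicates 2 and 3, where a count of 0 allows up to 3 counts, or 0.0664 and 0.0602 CPM. Its 2 preOC libraries stood at 24.1 and 48.8 CPM. The pooled counts of 3268 against 2 gave a ratio of 2400, with a counting interval of 664 to 19800. Both BMM counts lay in replicate 1, and without replicate 1 in both conditions Oscar was at least 735-fold higher in the preOC library than the 3 counts that a BMM library at 0 allows. Siglec15 rose from 10 pooled counts to 1094, a ratio of 161 (87.1 to 336), and its fitted log2 fold change moved from 7.37 to 7.98 without BMM replicate 3. Trem2 was at 1172, 793 and 945 CPM in BMMs and at 501 and 156 CPM in preOCs, so its preOC libraries lay far apart and the fall was not called (-1.56 ± 0.49, adjusted p = 0.0734). With a library left out in turn the log2 fold change ran from -2.57, without preOC replicate 1, to -0.96.

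**Figure D3:**
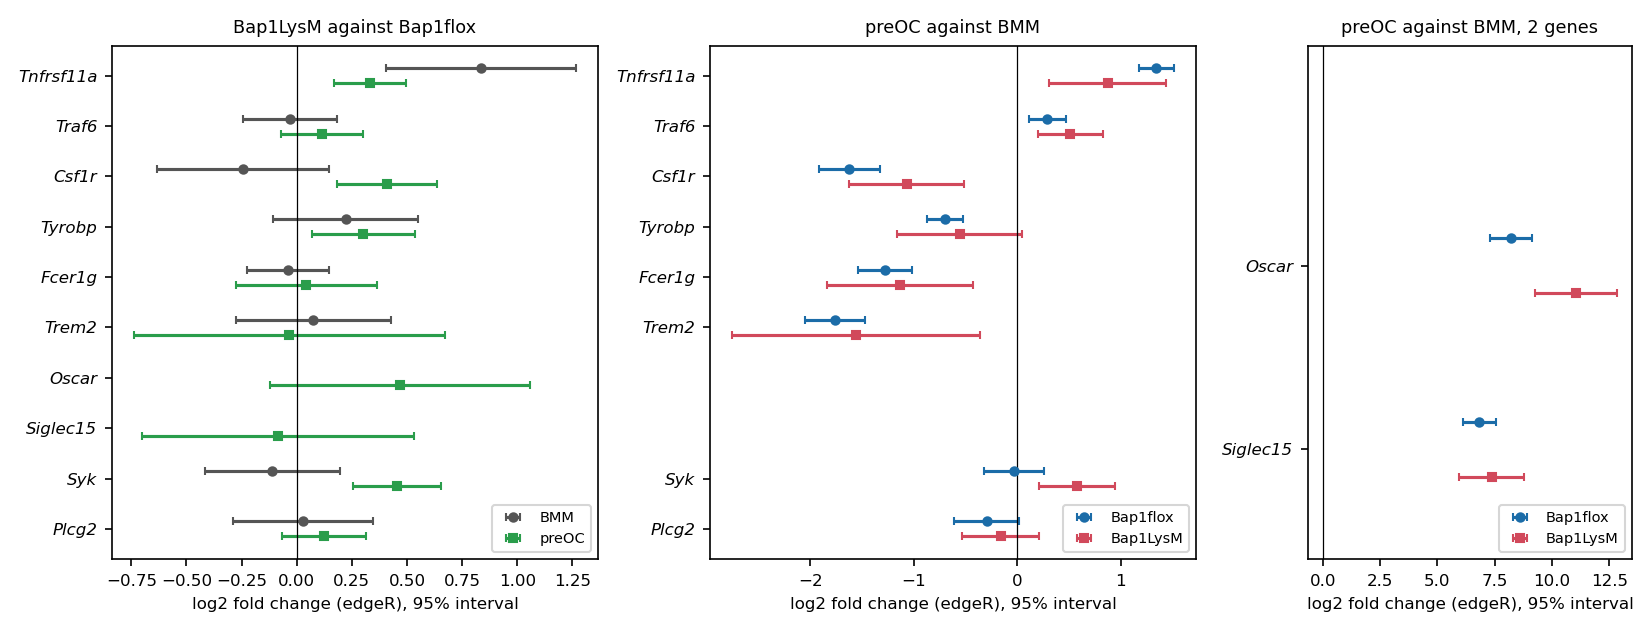
Log2 fold changes from edgeR with 95% intervals. Left, Bap1LysM against Bap1flox in BMMs (grey circles) and preOCs (green squares); middle and right, preOC against BMM in Bap1flox (blue circles) and Bap1LysM (red squares), with Oscar and Siglec15 on an axis of their own. In preOCs the intervals of Tnfrsf11a, Csf1r, Tyrobp and Syk lie above 0, and those of Tnfrsf11a, Csf1r and Syk pass the adjustment over all genes.

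The comparison of genotypes in preOCs asked what differs after 24 h of RANKL between Bap1LysM and Cre-free Bap1flox cells. Bap1 deletion, Cre and lower Lyz2 come together in it and cannot be told apart. Of the 10 genes 3 were higher in Bap1LysM preOCs, namely Tnfrsf11a, Csf1r and Syk, and none was lower. Among 12919 genes tested, 15.8% were called and 7.12% were called higher. The share of mitochondrial transcripts differed in part between genotypes, though without a test. In replicates 1 to 3 it was 0.481% to 1.019% in Bap1flox and 1.021% to 1.074% in Bap1LysM preOCs, nearly touching. In replicates 4 to 6 it was 2.364% to 3.639% and 3.383% to 5.264%, which overlap. Its part in the differences was not tested. The differences were 1.26-fold for Tnfrsf11a, 1.33-fold for Csf1r and 1.37-fold for Syk.

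Tnfrsf11a ran from 205 to 236 CPM with a median of 217 in the 6 Bap1flox libraries, and the 5 Bap1LysM libraries stood at 259, 269, 270, 289 and 298 CPM. Every Bap1LysM library thus lay above every Bap1flox library, as it did for 3.32% of all genes in this direction. The log2 fold change was 0.33 ± 0.08 (adjusted p = 0.0129). It remained called with each library left out in turn (0.30 to 0.36).

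Syk ran from 358 to 487 CPM with a median of 455 in Bap1flox preOCs and stood at 544, 563, 603, 660 and 662 CPM in Bap1LysM preOCs. Here too the groups did not overlap, and the log2 fold change of 0.46 ± 0.09 (adjusted p = 0.00665) was the largest of the 3 in this fit. That of Csf1r was the larger with voomWithQualityWeights (0.56 against 0.53) and in replicates 4 to 6 alone (0.45 against 0.40). Leaving out each library gave 0.40 to 0.49, called every time.

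Csf1r ran from 1176 to 1487 CPM with a median of 1353 in Bap1flox preOCs and stood at 1401, 1630, 1758, 2028 and 2097 CPM in Bap1LysM preOCs. The lowest Bap1LysM library, replicate 2, fell among the Bap1flox libraries. The log2 fold change was 0.41 ± 0.10 (adjusted p = 0.022). The call was lost when Bap1flox replicate 2, Bap1LysM replicate 4 or Bap1LysM replicate 5 was left out (adjusted p = 0.0508, 0.0684 and 0.0695) and when no filter on low counts was used (0.0831).

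The adaptors and their receptors were less clear. Tyrobp ran from 371 to 426 CPM in Bap1flox preOCs and stood at 398, 428, 511.0, 525.6 and 615 CPM in Bap1LysM preOCs (log2 fold change 0.30 ± 0.11, adjusted p = 0.0792). Its highest library was Bap1LysM replicate 1, and without it the difference was 0.21 (adjusted p = 0.11). Without replicate 2, the lowest of the group, it was 0.36 (adjusted p = 0.0341). With the replicate number as a block 5 of the 10 genes were called, all higher, with Tyrobp (0.29, adjusted p = 0.0447) and Oscar (0.43, adjusted p = 0.0431) added. The study's own method, voomWithQualityWeights, also called Tyrobp (0.31, adjusted p = 0.00271) and Oscar (0.71, adjusted p = 0.00551). DESeq2 called Tyrobp (0.33, adjusted p = 0.0206) but not Oscar (adjusted p = 0.2). Of 10 alternatives that leave out no single library, 5 called Tyrobp and 2 called Oscar.

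Oscar ran from 23.6 to 61.8 CPM with a median of 34.8 in Bap1flox preOCs and stood at 24.1, 48.8, 64.4, 64.6 and 68.4 CPM in Bap1LysM preOCs. The groups overlapped (log2 fold change 0.47 ± 0.27, adjusted p = 0.267). The lowest Bap1LysM value was that of replicate 1, and without it the difference was 0.65 ± 0.21 (adjusted p = 0.0456), which made 4 genes called. Trem2 depended on the same library in the other direction. It stood at 129, 156, 181, 198 and 501 CPM in Bap1LysM preOCs against 161 to 321 CPM in Bap1flox preOCs, and the log2 fold change went from -0.03 ± 0.32 with replicate 1 (501 CPM) to -0.53 ± 0.19 without it (adjusted p = 0.0608). The part of the Lyz2 level of replicate 1 in these values was not tested.

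For the remaining 4 genes the test found no difference, and the intervals show what it could have missed. The 95% interval of the log2 fold change was -0.07 to 0.30 for Traf6, -0.28 to 0.37 for Fcer1g, -0.70 to 0.53 for Siglec15 and -0.07 to 0.31 for Plcg2. With voomWithQualityWeights, which called 6 of the 10 genes, Plcg2 was called (0.19, adjusted p = 0.03). By edgeR's intervals, differences above 1.24-fold in Plcg2 or 1.23-fold in Traf6 lie outside these intervals, while Siglec15 could differ up to 1.45-fold upwards or down to 0.614 of the Bap1flox level.

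The library sets differed in level across the transcriptome, these genes included. In Bap1flox preOCs, Traf6, Csf1r, Syk and Plcg2 were higher in every library of replicates 4 to 6 than in every library of replicates 1 to 3, and Trem2 was lower, where 34.8% of all 12919 genes were higher without overlap and 23.6% lower. Syk, for example, ran from 358 to 428 CPM in replicates 1 to 3 and from 481 to 487 CPM in replicates 4 to 6. The genotypes were therefore also compared within each set. The log2 fold change of Syk was 0.48 ± 0.12 in replicates 1 to 3 and 0.40 ± 0.08 in replicates 4 to 6. That of Tnfrsf11a was 0.34 ± 0.11 and 0.33 ± 0.09, and that of Csf1r 0.30 ± 0.12 and 0.45 ± 0.10. All 3 were called in replicates 4 to 6 (adjusted p = 0.00522, 0.0177 and 0.0081), and none in replicates 1 to 3, where 2 Bap1LysM libraries stand against 3 and edgeR called 0 of 13605 genes (2369 at an unadjusted p under 0.05). The unadjusted p there was 0.00831 for Syk, 0.0212 for Tnfrsf11a and 0.0579 for Csf1r. With the set as a term in the model, 4 genes were called, the same 3 and Tyrobp (0.31 ± 0.10, adjusted p = 0.034). A test of whether the genotype difference itself differed between sets called none of 12919 genes (edgeR, 1185 at an unadjusted p under 0.05, and none of the 10 genes among them).

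**Figure D4:**
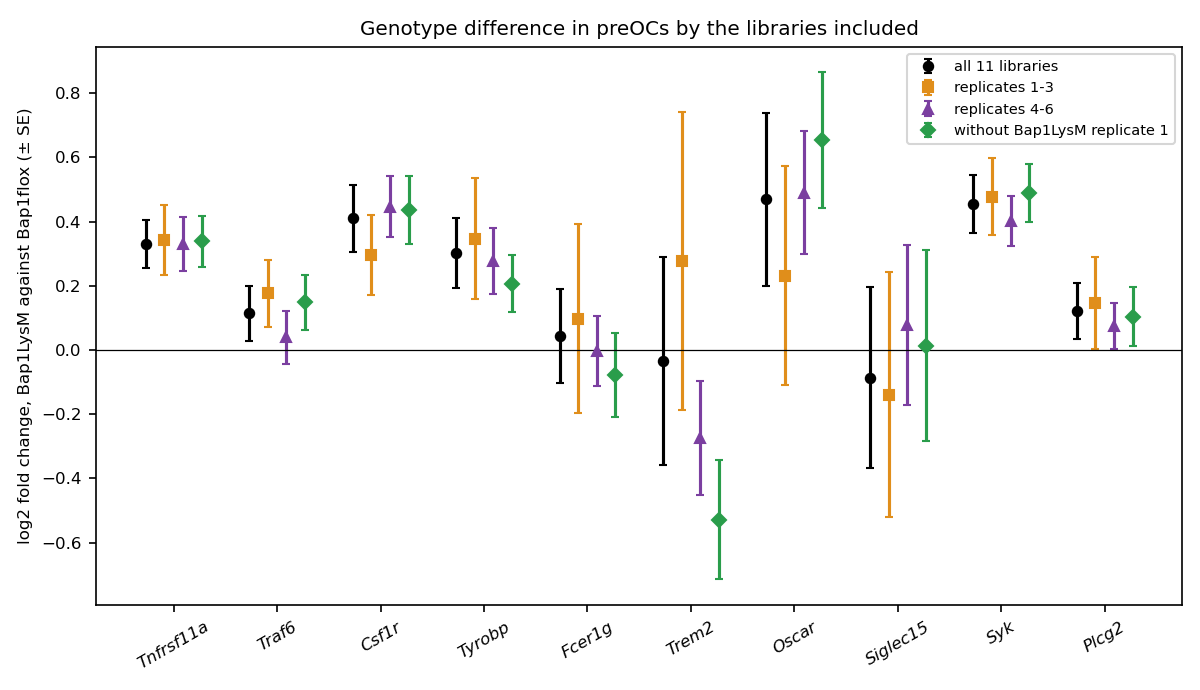
Log2 fold change (± SE) of each gene between Bap1LysM and Bap1flox preOCs, with all 11 libraries (black), replicates 1 to 3 alone (orange), replicates 4 to 6 alone (purple) and without Bap1LysM replicate 1 (green). Tnfrsf11a and Syk stay at 0.33 to 0.34 and 0.40 to 0.49 in all 4, while Trem2 moves from 0.28 in replicates 1 to 3 to -0.53 without Bap1LysM replicate 1.

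In BMMs, before any RANKL, only 8 of the 10 genes could be tested, since Oscar and Siglec15 did not reach 1 CPM in any library. Of these 8, Tnfrsf11a alone was called, against 5.32% of 13028 genes (1.31% higher). It stood at 89.6, 88.0 and 81.5 CPM in Bap1flox BMMs and at 185, 166 and 113 CPM in Bap1LysM BMMs, without overlap, as for 16.7% of all genes in this direction, a 1.78-fold difference (log2 fold change 0.84 ± 0.18, adjusted p = 0.0499). The call sits at the threshold. It was kept by voomWithQualityWeights, DESeq2, the replicate block and the other whole-group fits (adjusted p = 0.000427 to 0.0489), and lost when any library but Bap1LysM replicate 3 was left out (0.0906 to 0.188). With a library left out the log2 fold change ran from 0.69, without Bap1LysM replicate 1, to 1.02. Csf1r and Syk, which were higher in Bap1LysM preOCs, had log2 fold changes of -0.24 (95% interval -0.63 to 0.15) and -0.11 (-0.42 to 0.20) in BMMs. Those of Tyrobp, Fcer1g, Trem2, Plcg2 and Traf6 were 0.22, -0.04, 0.08, 0.03 and -0.03.

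Whether the response to RANKL differed between genotypes was tested as an interaction on replicates 1 to 3, which share their BMM and preOC libraries with the comparisons above. None of the 10 genes was called, and neither was any of the 13635 genes tested (0%), with 12.6% of them at an unadjusted p under 0.05. DESeq2 called 113 genes, none of the 10 among them. Syk and Csf1r were the members at an unadjusted p under 0.05. The response of Syk to RANKL was higher in Bap1LysM by 0.59 ± 0.19 on the log2 scale (adjusted p = 0.338), and that of Csf1r, a smaller fall, by 0.54 ± 0.23 (adjusted p = 0.372). Without Bap1LysM replicate 1 in both conditions these were 0.63 (adjusted p = 0.259) and 0.46 (adjusted p = 0.419). A single fit of all 17 libraries with the set as a term, which takes the set difference to be the same in both genotypes, called both (Syk 0.57 ± 0.13, adjusted p = 0.0196; Csf1r 0.64 ± 0.16, adjusted p = 0.0264) along with 1443 genes in all. For Tnfrsf11a the interaction was -0.49 with a 95% interval of -1.02 to 0.05.

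The wider pathways were read from lists of genes around the 10, members left out. For RANKL in Bap1flox cells, 67 of the 99 list genes above 1 CPM in a library of both groups were called, 18 higher and 49 lower, against 64.6% of all genes (31.7% higher and 32.9% lower). Il34 and Trem1 entered the test through 1 group alone and were left out of these counts. The list of ITAM-coupled and inhibitory receptors leaned furthest: 2 rose and 15 fell of 24. Its median log2 fold change was -1.21 over the 25 genes tested, against -0.05 over all genes. Those that rose were Clec5a, a DAP12-coupled lectin (3.57-fold), and Pira2, an FcR gamma-coupled receptor (1.86-fold). The 3 largest falls were of Fcgr3, an activating Fc receptor that uses FcR gamma, to 0.098 of the BMM level, of the inhibitory Fc receptor Fcgr2b to 0.145 and of the sialic acid receptor Cd33 to 0.156. The call of Pira2 was kept when 1 of the 6 libraries was left out and lost for the other 5.

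Of the ligands, RANK adaptors and TRAF partners, 5 rose and 7 fell of 20. Traf1 rose 40.8-fold, from 5.62 ± 0.944 to 230 ± 12.7 CPM (SD, n = 3 each), and Traf3, a brake on noncanonical NF-kappaB, 2.53-fold. Il34, an alternative ligand of the M-CSF receptor, had a mean of 0.391 CPM in BMMs and 2.04 ± 0.328 CPM in preOCs, given as a description. The scaffold gene Gab2 and the kinase genes Mapk14 and Map3k14 fell to 0.518, 0.525 and 0.663 of the BMM level. On the M-CSF receptor list, 6 rose and 12 fell of 26. The tyrosine kinase Src, needed for bone resorption, rose 15.7-fold to 331 ± 70.2 CPM, its relative Fgr 5.37-fold and Pik3cb 3.84-fold, while Cebpa fell to 0.226, Mapk3 to 0.464 and Inpp5d, the SHIP1 phosphatase gene, to 0.50 of the BMM level.

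On the list for Syk, phospholipase C, calcium and NFAT, 5 rose and 15 fell of 29. Fos rose 6.34-fold, Nfatc1 4.33-fold, from 126 ± 22.2 to 547 ± 93.8 CPM, and the calcineurin regulator Rcan1 3.08-fold. Nfatc2, Prkcb and the kinase Tec fell to 0.375, 0.418 and 0.517. Fos and Nfatc1 thus rose and Nfatc2 fell, while Syk and Plcg2 themselves did not pass the test.

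In Bap1LysM cells 27 of 99 list genes were called for RANKL, 16 higher and 11 lower, against 19.6% of all genes, with Siglece left out because it entered the test through the BMMs alone. The count with Siglece, 28, fell to 2 to 14 with any BMM library or preOC replicate 2 left out, and was 41 without preOC replicate 1 and 55 without replicate 1 in both conditions. Traf1 (69.8-fold), Src (21.9-fold), Fgr (11.4-fold), Nfatc1 (5.22-fold), Pik3cb (4.66-fold), Clec5a (4.19-fold), Pira2 (3.67-fold), Fos (3.43-fold), Traf5 (2.53-fold), Traf3 (2.51-fold) and Rcan1 (2.5-fold) rose. Treml2, Fcgr3, Cebpa, Vav3, Fyn, Lyn and Ppp3ca fell, to 0.204, 0.207, 0.273, 0.470, 0.476, 0.569 and 0.694 of the BMM level. Siglece, with means of 3.06 CPM in BMMs and 0.934 CPM in preOCs, is given as a description. Of the genes named here as risen or fallen, Traf1 and Fgr alone were called with each library left out in turn. Without preOC replicate 1 the log2 fold change moved from -2.29 to -3.20 for Treml2, from -2.27 to -3.13 for Fcgr3, from -1.87 to -2.56 for Cebpa and from 2.06 to 1.32 for Clec5a. Without preOC replicate 2 it moved from 2.38 to 1.69 for Nfatc1 and from 4.45 to 3.80 for Src, and without BMM replicate 1 from 1.78 to 2.44 for Fos. The 2 genotypes' comparisons share no library.

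**Figure D5:**
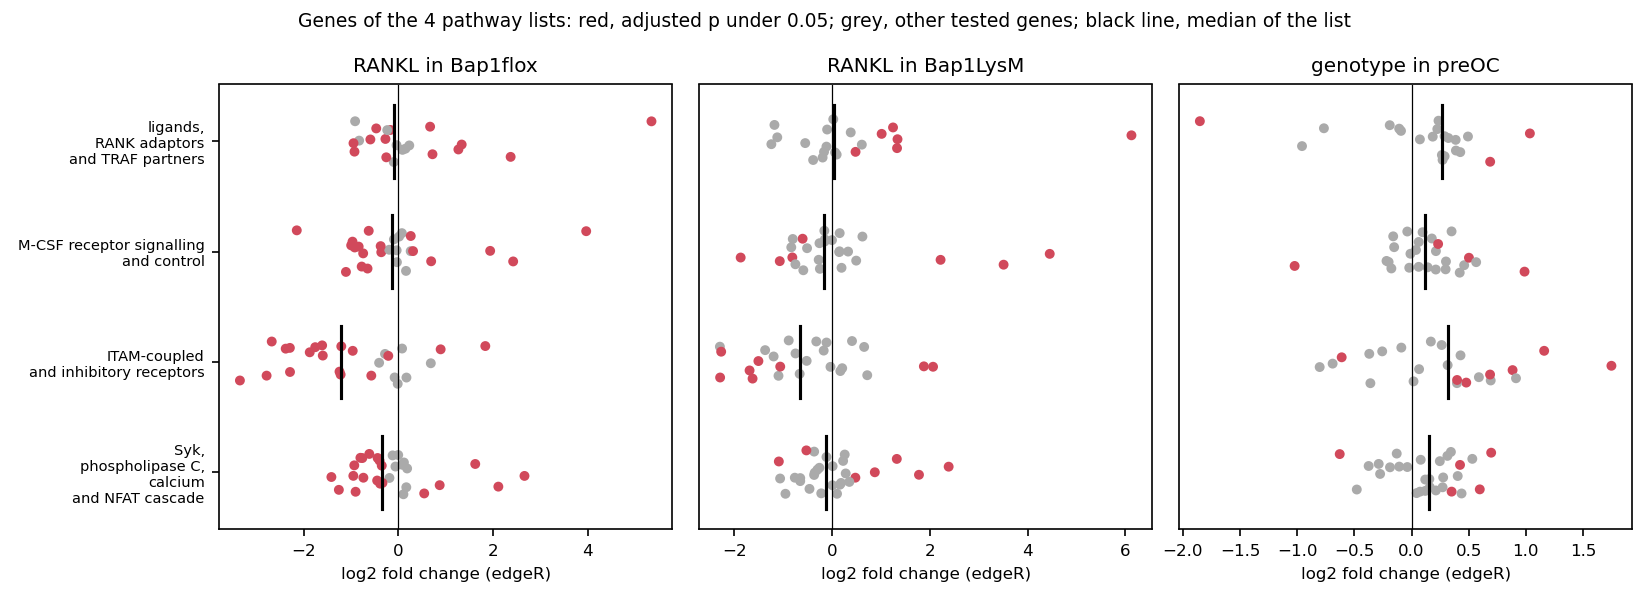
Log2 fold change of each tested gene on the 4 lists (red, adjusted p under 0.05; grey, others; black line, median of the list) for RANKL in Bap1flox, RANKL in Bap1LysM and genotype in preOCs. The receptor list has its median at -1.21 for RANKL in Bap1flox cells and at 0.32 for genotype in preOCs.

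Between genotypes in preOCs, 19 of 99 list genes were called, 15 higher and 4 lower, against 15.8% of all genes (7.12% higher). The count depended on single libraries: it was 32, 33, 11 and 12 without Bap1LysM replicate 1, 2, 4 and 5, and 0 in replicates 1 to 3 alone. Of 23 receptors tested 6 were higher and 1 lower. Clec4n, which encodes the fungal receptor dectin-2, an FcR gamma partner, stood at 69.7 ± 46.2 CPM in Bap1flox and 235 ± 92.5 CPM in Bap1LysM preOCs (3.36-fold, adjusted p = 0.017). Cd33 stood at 15.8 ± 2.53 and 35.7 ± 8.12 CPM (2.24-fold, adjusted p = 0.000959), without overlap, and Cd300a was 1.85-fold higher (adjusted p = 0.0437). Pira2 was lower, at 0.655 of the Bap1flox level. On the M-CSF receptor list 3 were higher, among them Fgr (1.99-fold) and Inpp5d (1.42-fold), and Fyn was lower (0.492). Inpp5d encodes a phosphatase that limits signalling from this receptor and from DAP12.

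Of the calcium and NFAT list 4 were higher and 1 lower of 29. Prkcb (1.62-fold), Vav2, an exchange factor downstream of SYK (1.51-fold), and the calcineurin subunit Ppp3r1 (1.34-fold) were higher, and the calcineurin subunit Ppp3cc was lower (0.647). On the RANK list Lgr4, a second receptor for RANKL, was higher at a low level (3.34 ± 1.12 against 6.93 ± 1.93 CPM), Gab2 was 1.61-fold higher and Map2k6 was at 0.277 of the Bap1flox level without overlap, as for 6.08% of all genes in this direction, from 4.10 ± 0.964 to 1.14 ± 0.185 CPM. With each library left out in turn, 11 of the genes named here for preOCs were called every time. Those that lost the call with at least 1 library left out were Lgr4, Cd300a and Pira2, and Cd300a was the one that lost it without Bap1LysM replicate 1. With the replicate number as a block 44 of the list genes were called. In BMMs 3 of 100 were called, against 5.32% of all genes, and 14 with the block. These were Traf3 (1.27-fold higher), Mapk3 (0.732) and Fcgr2b (0.377), called in 0, 1 and 4 of the 6 fits with a library left out.

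Markers of other cell types moved with these groups in part. The summed level of 8 neutrophil markers was 61.4 to 181 CPM in Bap1flox and 168 to 602 CPM in Bap1LysM preOCs, that of 8 B and plasma cell markers 9.34 to 21.6 and 33.3 to 81.9 CPM, and that of 8 mast cell and basophil markers 0.818 to 2.21 and 3.81 to 7.11 CPM. Among these markers Tpsb2 of the mast cell list was at 0 in every preOC library, and no gene of the other lists was. The 8 dendritic cell markers summed to 68.3 to 226 and 53.2 to 387 CPM, the 8 stromal markers to 184 to 1930 and 100.0 to 1210 CPM, and the 8 NK and T cell markers to 1.16 to 2.19 and 0.992 to 4.26 CPM. Without Lyz2, the other 7 macrophage markers summed to 2590 to 3680 and 2330 to 4320 CPM. Some of these sums rest on few genes. In Bap1flox and Bap1LysM preOCs, 6 and 7 neutrophil markers were above 1 CPM in every library of the group. These numbers were 3 and 3 for B and plasma cells, and 0 and 1 for mast cells and basophils. They were 2 and 3 for dendritic cells, 5 and 5 for stromal cells, and 1 and 0 for NK and T cells. Fcer1g, Tyrobp and Syk are also expressed by neutrophils and mast cells, and the part of such cells in the genotype differences was not tested.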

How the data were processed

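Reads from oligo-dT selected RNA were aligned to GRCm38 (Ensembl release 76) with STAR 2.5.1a and counted per gene with featureCounts 1.4.6-p5, and the authors deposited raw counts of uniquely aligned reads. The deposited CPM and RPKM values were checked to equal the count over the library's total and that value per kilobase of the deposited gene length. Here 355 ribosomal RNA genes were left out of the tests, and CPM were rescaled by TMM factors.

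Genes above 1 CPM in at least 4 preOC libraries, or 2 libraries in the other comparisons, were tested with edgeR 4.0.16 in R 4.3.3 (quasi-likelihood test, TMM factors, Benjamini-Hochberg adjustment over all genes tested, threshold 0.05). RANKL and the interaction were tested on replicates 1 to 3. Intervals use the standard error and the fit's degrees of freedom. Ratios of near-zero genes have exact conditional intervals, which cover counting error only. Alternatives were voomWithQualityWeights (limma 3.58.1), DESeq2 1.42.0, RLE and upper-quartile factors, no filter, the replicate number as a block, a term for the library set, each set alone, a joint fit of all 17 libraries, and each library left out. The script was tested on simulated data.

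The members, the lists and the tests were chosen with earlier results of these data known. The named genes are the 10 members and, per list and comparison, up to 3 called genes in each direction with the largest change. One gene that this rule names is not reported here. Once group means were subtracted, libraries with the same number correlated at 0.37 to 0.72 in preOCs, 0.36 to 0.54 in BMMs and 0.24 to 0.37 for RANKL in Bap1flox, all above 0.1. In preOCs, libraries of other numbers in the same set correlated at up to 0.67, and with replicates 4 to 6 taken alone the same-number correlations were -0.10 to 0.06, so there a pairing cannot be told apart from the library set. Csf1r, Siglec15 and Tyrobp promoters were not used here.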

Additional observations from a re-analysis of the deposited data

Results flagged for a closer look

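Of 20 sets of preOC values (10 genes in each genotype), 2 held a library whose gap to the nearest of its group, over the group's range, was above Dixon's 95% critical value, which chance exceeds in about 1 in 20 groups. Trem2 was at 501 CPM in Bap1LysM preOC replicate 1, against 129 to 198 CPM in the other 4 libraries of the group. This is the library in which Lyz2 stood at 80.1% of the Bap1flox mean. Plcg2 was at 193 CPM in Bap1LysM preOC replicate 2, against 247 to 254 CPM in the other 4. In Bap1flox preOCs of the same library set Plcg2 ran from 182 to 221 CPM.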

How the results depend on the processing

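With each library left out in turn, the call was kept every time for 2 of the 3 members called between genotypes in preOCs, for 0 of 1 in BMMs, for 6 of 6 with RANKL in Bap1flox cells and for 0 of 5 with RANKL in Bap1LysM cells. Oscar and Siglec15, which passed the filter through the preOCs alone, are left out of the last 2 counts. No called member changed direction.

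Members called in preOCs numbered 3, and 6 with voomWithQualityWeights, 5 with the replicate block and 0 in replicates 1 to 3 alone. List genes called there numbered 19 (11 to 33 with a library left out), and 64 with voomWithQualityWeights, 31 with DESeq2, 44 with the replicate block, 47 in the single fit of all 17 libraries, 43 with a term for the set, 0 in replicates 1 to 3 and 46 in replicates 4 to 6. Over all genes the count was 2040 (1067 to 3072), and 7093, 4233 with the block, 4527, 4345, 0 and 4282 under these settings, DESeq2 left aside. In BMMs members called ran from 0 to 1 with a library left out. List genes numbered 3 (0 to 2), and 13 with voomWithQualityWeights, 14 with DESeq2, 5 with no filter, 14 with the replicate block and 9 in the single fit. All genes numbered 693 (4 to 756), and 1772, 2065, 2107 with the block and 1991. RANKL in Bap1LysM cells gave 5 of 8 members (0 to 5 with a library left out, and 2 with voomWithQualityWeights), or 7 (0 to 5, and 4) if Oscar and Siglec15 are counted, 28 list genes (2 to 41, 49 with DESeq2 and 58 in the single fit) and 2550 genes in all (63 to 3336, 1667 with voomWithQualityWeights, 3996 with DESeq2 and 6815 in the single fit). Without Bap1LysM replicate 1 in both conditions these numbered 7 of 8 members (9 with Oscar and Siglec15), 55 list genes and 4415 genes. The interaction gave 0 members (2 in the single fit), 0 list genes (0 to 4, 3 with DESeq2 and 14 in the single fit) and 0 genes in all (0 to 119, 113 with DESeq2 and 1443 in the single fit). The cause of these changes was not tested. The 28 list genes for RANKL in Bap1LysM cells include Siglece, which passed the filter through the BMMs alone, and 27 are left without it. RANKL counts in Bap1flox cells stayed within 1.5 times their value.

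Sign changes were seen only among members that were not called. In preOCs Fcer1g went to -0.02 with upper-quartile factors, -0.012 with the replicate block and -0.004 in replicates 4 to 6, Trem2 to 0.003 in the single fit and 0.28 in replicates 1 to 3, and Siglec15 to 0.001 with the block, 0.016 in the single fit and 0.078 in replicates 4 to 6. In BMMs Trem2 went to -0.007 with voomWithQualityWeights and Plcg2 to -0.011 with upper-quartile factors. For RANKL in Bap1flox cells Syk went to 0.127, 0.028 and 0.015 with voomWithQualityWeights, upper-quartile factors and no filter. In the interaction Trem2 went to -0.006 with the block and -0.088 in the single fit, and without Bap1LysM replicate 1 in both conditions Tyrobp was -0.063, Fcer1g -0.377, Trem2 -0.676 and Plcg2 -0.034. With a library left out, log2 values ran from -0.078 to 0.149 for Fcer1g, -0.529 to 0.125 for Trem2 and -0.334 to 0.066 for Siglec15 in preOCs, from -0.074 to 0.029 for Traf6, -0.084 to 0.203 for Trem2, -0.191 to 0.026 for Syk and -0.06 to 0.18 for Plcg2 in BMMs, and from -0.08 to 0.155 for Syk with RANKL in Bap1flox cells. In the interaction they ran from -0.189 to 0.384 for Tyrobp, -0.397 to 0.52 for Fcer1g, -0.837 to 0.79 for Trem2, -0.192 to 1.146 for Siglec15 and -0.036 to 0.265 for Plcg2.

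Of these alternatives, the genotype difference by library set and the RANKL comparison without Bap1LysM replicate 1 in both conditions were added after seeing the data. Where 1 library was left in a group it was assumed to vary like the others. Depth limits only Oscar and Siglec15 in BMMs, at 0 to 8 counts a library.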
